A study of Mus musculus with 24 samples.

Results

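The cold response of brown fat labelled BATdKO was described here from 12 libraries, 6 from mice kept at 8°C and 6 from mice kept at 30°C, out of the 24 libraries of the series. The members were chosen by their labels alone, as the libraries of Ucp1CreERT2 positive mice at either temperature. The other 12 libraries, from Ucp1CreERT2 negative control mice called Cre-, were used to fit the model and for comparison. All 24 mice carried floxed alleles of both Tbl1xr1 (TBLR1) and Tbl1x (TBL1), and by the labels were females that had received tamoxifen at an age given as 5 years, with the temperature protocol starting 3 weeks after the last injection. Mice were born and raised at 22°C. Warm mice went directly to 30°C for 4 days, while cold mice were brought down through 18°C, 16°C and 12°C for 1 day each and then stayed at 8°C for 6 days. The paper's text gives fewer days in the cold, males, and an age in weeks, so age, sex and length of exposure remain uncertain. CreERT2 was driven from the Ucp1 promoter, so that recombination is aimed at cells using that promoter. Which cells of the depot recombined was not measured here, and the paper raises possible deletion in early progenitors.

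Brown fat burns fatty acids and glucose to make heat. Noradrenaline released in the cold acts on β-adrenergic receptors and raises cAMP, which starts lipolysis and the transcription of Ucp1, the uncoupling protein of the inner mitochondrial membrane, and of Ppargc1a and Dio2. TBLR1 and TBL1 are WD40-repeat proteins of the NCoR corepressor complex that act as exchange factors between corepressors and coactivators, and their deletion in brown adipocytes raises the question of which parts of the cold programme proceed without them.

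RNA was read as tags from the 3′ end of transcripts, so that a gene's count does not grow with its length. Total counts ran from 4653609 to 11527643 in the warm libraries and from 2738613 to 11355373 in the cold ones. Levels are given as CPM, a gene's counts scaled to a common library total after normalization between libraries, and differences as log2 of 8°C over 30°C with the standard error (SE) of the model. Mice are separate animals by their numbers in the labels. The library numbers of all 30°C libraries formed a consecutive block and those of all 8°C libraries another, with genotypes mixed in each. What the blocks stand for was not given, and a difference between them cannot be told apart from temperature. A gene was called where the Benjamini-Hochberg adjusted p of edgeR's quasi-likelihood test, taken over all 12485 tested genes, was under 0.1, and adjusted p below always means that value.

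The targeted genes did not match the label. Tbl1xr1 (ENSMUSG00000027630, chromosome 3, 22076652 to 22216594, GRCm38) was read at 42.0, 32.1, 37.0, 37.0, 29.8 and 17.0 CPM in the warm BATdKO mice m1 to m6 and at 44.0, 40.5, 38.0, 44.3, 33.7 and 38.5 CPM in the cold ones. The Cre- libraries held 16.4 to 38.6 CPM at 30°C and 18.2 to 24.6 CPM at 8°C, so 11 of the 12 BATdKO libraries lay above every Cre- library except 1. Tbl1x (ENSMUSG00000025246, chromosome X, 77511013 to 77662983) ran from 39.6 to 59.9 CPM in warm and from 42.4 to 63.6 CPM in cold BATdKO, against 31.4 to 53.5 and 38.7 to 43.8 CPM in Cre-. A tag at the 3′ end does not report on an excised exon upstream of it, and the position of the floxed exons was not given in the sources used here, so the label can be neither checked nor replaced, and the mice are described below as the libraries labelled BATdKO. Between temperatures, neither gene was called within BATdKO: the log2 difference was 0.29 (SE 0.168, adjusted p 0.391) for Tbl1xr1 and 0.00 (SE 0.104, adjusted p 1) for Tbl1x.

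One library stood apart. The warm BATdKO mouse m6 had the lowest Tbl1xr1 and Tbl1x of its group and, at 84.7 CPM, the lowest Ucp1, while the other 5 warm mice held 217 to 412 CPM of Ucp1. Its median correlation with the rest of its group was 0.946, against 0.968 to 0.98 for the other warm mice. In the same temperature group under the Cre- label, mouse m6 was the one with the highest Tbl1xr1 (38.6 CPM) and Ucp1 (548 CPM, the other 5 at 28.9 to 133). Whether labels were exchanged was not tested. Where a list's count fell without BATdKO m6 by over 1.5 times, or a named gene lost its call, this is said beside it.

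**Figure D1:**
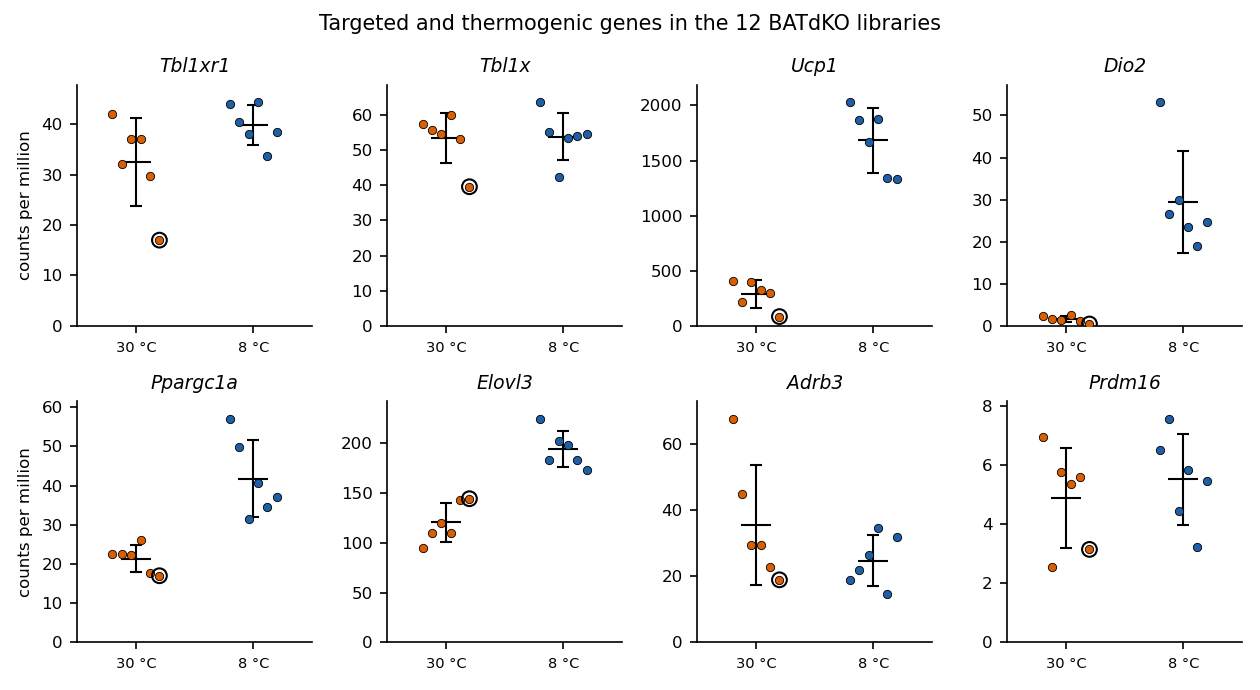
CPM of both targeted genes and of 6 thermogenic genes in each BATdKO library, 6 at 30°C (orange) and 6 at 8°C (blue), with the mean and SD of each group; the ringed point is warm mouse m6. Ucp1, Dio2, Ppargc1a and Elovl3 do not overlap between the temperatures, whereas Tbl1xr1, Tbl1x, Adrb3 and Prdm16 do.

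Transcripts of other tissues were also present. The 15 hepatocyte markers summed to 4.06% to 5.28% of counts in warm and 3.81% to 5.48% in cold BATdKO libraries, with Alb (albumin) at 5685 to 12126 and 9447 to 14271 CPM, none was at 0 and none was called. Xist, transcribed from the inactive X, and Ddx3y, a Y-linked gene, were both read in all 12 libraries, at 20.5 to 49.0 and 24.7 to 34.1 CPM. Xist was called lower in the cold (log2 difference -0.52, adjusted p 0.0799), at 28.4 to 49.0 CPM in warm and 20.5 to 43.5 CPM in cold libraries. That call was lost in 6 settings, each with 1 BATdKO library left out. The 4 Y-linked genes tested were not called, at log2 differences of 0.01 to 0.31. The 17 tested markers of skeletal muscle fibres summed to 0.00217% to 0.0731% in warm and 0.000351% to 0.0157% in cold libraries, and none was called although their median log2 difference was -2.10. Of the 12 macrophage markers none was called, 10 had a negative log2 difference, and their summed share was 0.0266% to 0.032% in warm and 0.0202% to 0.0267% in cold libraries. The source of the liver and sex-linked tags, and their part in the results below, was not tested.

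Cold changed 883 genes in BATdKO, 470 upward and 413 downward, which is 7.07% of the genes tested, 3.76% higher and 3.31% lower. Without warm m6 the numbers were 707, 361 and 346, and 634 genes were called both with and without it. Without the cold mouse m4 they fell further, to 574 called genes and 238 called lower. Among the 883 genes, 128 changed at least 2-fold, 73 up and 55 down. The 6 cold and 6 warm libraries did not overlap for 374 of all tested genes (3.00%), and 330 of those were among the called genes. An exact two-sided permutation test on 1 gene cannot give a p below 0.00216 with 6 mice against 6. Counts of called members in the lists below are set against the shares over all tested genes. The gene lists were chosen with earlier results of these data known, so counts above those shares may have been favoured by the choice.

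The strongest single responses were a rise of Dio2 and a fall of Impdh1. Dio2, the deiodinase that makes active thyroid hormone inside brown adipocytes, stood at 2.44, 1.57, 1.5, 2.63, 1.19 and 0.451 CPM in the warm mice and at 53.1, 26.5, 29.8, 23.4, 19.0 and 24.8 CPM in the cold ones. Every cold library was thus far above every warm one, and the fitted rise was 16.6-fold (log2 difference 4.05, SE 0.333, adjusted p 1.31e-08). Impdh1, an isoform of the rate-limiting enzyme of guanine nucleotide synthesis, fell from between 33.6 and 71.5 CPM to between 3.85 and 7.13 CPM, without overlap and by 3.20 on the log2 scale (SE 0.251, adjusted p 8.88e-09). It had the smallest p of all genes in this contrast.

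Of 20 tested brown adipocyte and thermogenic genes, 10 rose and none fell, against 3.76% higher over all tested genes. Of the 20, 15 had a positive log2 difference, and the median was 0.51 against -0.003 over all tested genes. Ucp1 (ENSMUSG00000031710, chromosome 8, 83290352 to 83298452) went from 412, 217, 398, 327, 300 and 84.7 CPM in the warm mice to 2028, 1866, 1670, 1874, 1341 and 1330 CPM in the cold ones. The groups were far apart, with a rise of 5.81-fold (log2 difference 2.54, SE 0.425, adjusted p 3.89e-04). Ppargc1a, the coactivator of mitochondrial biogenesis, rose from a median of 22.5 CPM (17.0 to 26) to 38.8 CPM (31.4 to 57.0), a log2 difference of 0.95 (SE 0.151, adjusted p 2.30e-04). Elovl3, an elongase of very long-chain fatty acids induced in brown fat by cold, rose from 115 CPM (94.5 to 144) to 191 CPM (173 to 224), again without overlap, by 0.69 (SE 0.0959, adjusted p 4.29e-05).

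Bmp8b, a secreted factor that increases the response of brown fat to noradrenaline, was low throughout, at 0.169 to 0.751 CPM (1 to 5 counts) in warm and 0.871 to 4.52 CPM in cold libraries, with a log2 difference of 3.01 (SE 0.499, adjusted p 3.65e-04). Otop1, a proton channel, rose by 1.67, Cox7a1 by 0.96, Letmd1 by 0.93, Cox8b by 0.90 and the potassium channel Kcnk3 by 0.81. These 5 lay outside the rule for named genes and were chosen after their values were seen. Cox8b lost its call without warm m6 (adjusted p 0.165). Prdm16, a regulator of brown fat identity, lay between 2.55 and 6.97 CPM in warm and between 3.24 and 7.57 CPM in cold libraries, and its log2 difference of 0.20 (SE 0.323) did not pass (adjusted p 0.816). Adrb3, the β3-adrenergic receptor, was also not called, at -0.51 (SE 0.26, adjusted p 0.315), its cold values of 14.6 to 34.6 CPM falling within the warm range of 18.9 to 67.5 CPM except for the lowest 2. Cidea, a lipid droplet protein of brown adipocytes and likewise outside the rule, was at -0.73 (adjusted p 0.119) with all libraries and at -0.83 (adjusted p 0.0815) without m6, which left the list at 9 higher and 1 lower.

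**Figure D2:**
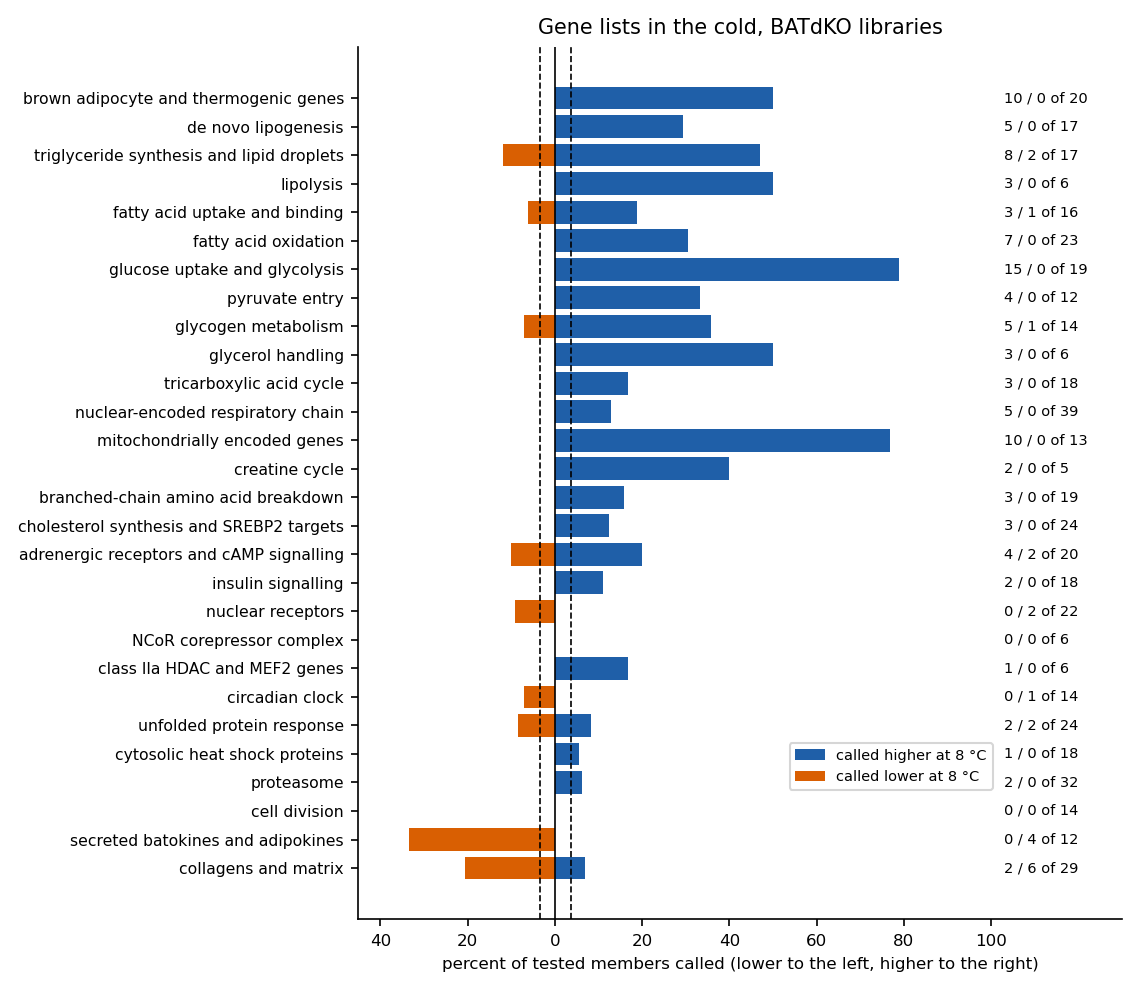
Share of the tested members of each pathway list, marker lists left out, that was called higher (blue, right) or lower (orange, left) at 8°C in BATdKO, with the counts of higher and lower members of those tested at the right edge; dashed lines mark the shares over all tested genes, 3.76% and 3.31%. The bars of glycolysis (15 of 19 higher) and of the mitochondrially encoded genes (10 of 13 higher) are the longest, and secreted factors and matrix genes extend mainly to the left.

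Among the metabolic lists, that of glucose use had the largest share of members called. Of 19 tested genes of glucose uptake and glycolysis, 15 rose and none fell, against 3.76% higher over all tested genes. The median log2 difference was 0.65, and the counts were unchanged without warm m6. Hk2, the insulin-regulated hexokinase that traps glucose in the cell, rose from 37.7 CPM (20.4 to 60.8) to 102 CPM (63.8 to 151), without overlap, by 1.49 (SE 0.214, adjusted p 6.39e-05). Pfkl and Pfkp, the liver-type and platelet-type phosphofructokinases of the committing step, rose by 1.37 (SE 0.185, adjusted p 3.12e-05) and 1.32 (SE 0.205, adjusted p 1.62e-04). Their ranges were 25.4 to 49.6 against 52.2 to 109 CPM for Pfkl, and 10.5 to 19.1 against 19.4 to 43.2 CPM for Pfkp, where the lowest cold mouse was level with the highest warm one. Pkm, the pyruvate kinase of most tissues outside liver, rose by 1.28 (SE 0.174, adjusted p 3.51e-05) from 105 to 190 CPM to 201 to 411 CPM. Its exons overlap those of the predicted gene Gm49759 on the same strand.

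Ldha, which converts pyruvate to lactate, rose less, by 0.59 (SE 0.0897, adjusted p 1.44e-04), and again without overlap (194 to 230 against 276 to 365 CPM). The carriers of glucose itself were not called: Slc2a1 (GLUT1) was at -0.05 (SE 0.279, adjusted p 0.991) and Slc2a4 (GLUT4), the insulin-responsive carrier, at 0.02 (SE 0.243, adjusted p 0.996).

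Of 12 tested genes of pyruvate entry into mitochondria, 4 rose and none fell, against 3.76% higher over all tested genes. The 4 were Pdp2, Mpc2, Pdhb and Pdhx. Pdp2, the phosphatase that switches on pyruvate dehydrogenase, had narrow groups of 42.2 to 51.7 CPM in warm and 72.4 to 81.5 CPM in cold libraries (log2 difference 0.70, SE 0.0792, adjusted p 2.41e-06). Mpc2, a subunit of the mitochondrial pyruvate carrier, rose by 0.98 (SE 0.163, adjusted p 3.65e-04). Pdk4, the kinase that opposes Pdp2, was at 0.06 with a wide error (SE 0.355, adjusted p 0.981).

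In glycogen metabolism 5 of 14 tested genes rose and 1 fell, against 3.76% higher and 3.31% lower over all tested genes. Gbe1, the branching enzyme, rose by 0.40 (adjusted p 0.00869), Ppp1r3c, which targets phosphatase to glycogen, by 0.48 (adjusted p 0.0209) and Gys2, a glycogen synthase, by 0.33 (adjusted p 0.0282). The 1 that fell was Pygb, a glycogen phosphorylase, at 15.0 to 27.8 CPM in warm and 7.43 to 11.9 CPM in cold libraries (log2 difference -1.0, SE 0.161, adjusted p 2.45e-04).

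Of 6 genes of glycerol handling 3 rose, against 3.76% of all tested genes. Gk, the glycerol kinase that lets brown fat reuse the glycerol freed by lipolysis, was at 18.8 to 26.1 CPM in warm and at 43.6 to 67.1 CPM in cold libraries. The groups were separated by a wide gap and the rise was 2.39-fold (log2 difference 1.26, SE 0.122, adjusted p 2.47e-07). Gpd1 and Gpd2, the cytosolic and mitochondrial glycerol-3-phosphate dehydrogenases that form a shuttle of electrons into the respiratory chain, rose by 1.04 (SE 0.212, adjusted p 0.00309) and 1.00 (SE 0.189, adjusted p 0.00156).

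Promoter sequences of Dio2, Ldha and Gk are printed as examples, picked among genes that rose and hold a cAMP response element or an E-box. Whether either element takes part in the cold response was not tested. The sequences cover 250 bases before to 50 bases after a RefSeq transcript start in GRCm38.p6, each written 5′ to 3′ on the gene's own strand. In the Dio2 promoter (chr12:90738989-90739288, minus strand) the capitals mark the cAMP response element TGACGTCA, in that of Ldha (chr7:46845554-46845853, plus strand) the same element, and in that of Gk (chrX:85776770-85777069, minus strand) the E-box CACGTG.
Dio2: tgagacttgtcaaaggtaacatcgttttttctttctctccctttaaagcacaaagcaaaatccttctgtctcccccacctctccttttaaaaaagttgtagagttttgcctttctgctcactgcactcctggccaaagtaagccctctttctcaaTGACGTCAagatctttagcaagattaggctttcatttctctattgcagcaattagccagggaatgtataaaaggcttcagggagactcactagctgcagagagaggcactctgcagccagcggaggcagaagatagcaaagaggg
Ldha: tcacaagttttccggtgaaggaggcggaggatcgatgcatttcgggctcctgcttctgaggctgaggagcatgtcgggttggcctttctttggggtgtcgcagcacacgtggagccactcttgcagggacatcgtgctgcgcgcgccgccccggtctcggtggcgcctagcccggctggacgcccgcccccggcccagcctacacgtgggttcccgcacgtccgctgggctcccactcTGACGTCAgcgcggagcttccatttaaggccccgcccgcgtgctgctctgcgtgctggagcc
Gk: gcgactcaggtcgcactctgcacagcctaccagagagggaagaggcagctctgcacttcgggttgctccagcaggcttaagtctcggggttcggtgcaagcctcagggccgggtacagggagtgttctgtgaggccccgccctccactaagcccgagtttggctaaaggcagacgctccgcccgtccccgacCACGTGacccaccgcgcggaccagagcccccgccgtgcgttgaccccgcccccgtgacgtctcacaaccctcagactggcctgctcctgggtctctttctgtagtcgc

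Both elements read the same on either strand. The Ldha window also holds 2 E-boxes, left in lower case, apart from its marked element. The shares below are given without a test. TGACGTCA was found in 2.38% of the 336 called-higher genes with a promoter sequence, in 1.63% of the 307 called-lower ones, in 3.49% of the 8675 tested genes with a sequence and in 2.03% of all 27025 genes of the table. CACGTG was found in 13.4%, 11.4%, 11.7% and 8.09% of the same sets. The element of oestrogen-related receptors (TCAAGGTCA on either strand) occurred in 3 called-higher genes (0.893%) and no called-lower ones. Among tested genes with a sequence it occurred in 25 (0.288%), and 3 genes are too few for a conclusion. The D-box TTATGTAA occurred in 3 of each (0.893% and 0.977%), against 0.795% of tested genes with a sequence. A match describes letters in a window and not a bound site.

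Genes of fatty acid synthesis rose in part. Of 17 tested genes of de novo lipogenesis, 5 rose, against 3.76% of all tested genes, and none fell, with a median of 0.22. Elovl6, which elongates palmitate, rose most, from 145 CPM (112 to 228) to 389 CPM (210 to 493), a log2 difference of 1.33 (SE 0.196, adjusted p 8.00e-05) with the lowest cold mouse inside the warm range. Acacb, the acetyl-CoA carboxylase of the mitochondrial surface, rose by 0.67 (SE 0.129, adjusted p 0.00194), Thrsp, the thyroid hormone-responsive lipogenic protein, by 0.60 (SE 0.124, adjusted p 0.00365), and Me1, malic enzyme, by 0.54 (SE 0.114, adjusted p 0.00428). Acly, ATP citrate lyase, passed at 0.56 (SE 0.179, adjusted p 0.0742), but no longer did after removal of any single one of 9 among the 12 BATdKO libraries. The central enzymes of the pathway did not pass: Fasn was at 0.17 (SE 0.153, adjusted p 0.636), Acaca at 0.22 (SE 0.198, adjusted p 0.635) and the desaturase Scd1 at -0.22 (SE 0.13, adjusted p 0.4). In Cre- the log2 differences of Fasn and Acaca were 0.84 and 0.93, and the differences between the labelled genotypes, -0.67 and -0.71, did not pass either (adjusted p 0.357 and 0.511). In cold BATdKO mouse m6 these genes were low together, Fasn at 1507 CPM against 2427 to 3212 in the other 5 and Acaca at 148 CPM against 275 to 355.

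Triglyceride synthesis and lipid droplet genes moved in both directions, with 8 of 17 higher and 2 lower. The shares over all tested genes were 3.76% and 3.31%. Dgat2, which adds the last fatty acid to triglyceride, rose from 228 to 350 CPM in warm to 458 to 672 CPM in cold libraries, without overlap, by 0.80 (SE 0.12, adjusted p 1.11e-04). Plin5, the perilipin that ties droplets to mitochondria, rose by 0.67 (SE 0.111, adjusted p 3.73e-04) and Plin2 by 0.47 (SE 0.0964, adjusted p 0.00331). Both genes that fell were droplet proteins: Plin4, a perilipin of white adipocytes and muscle, by 1.22 on the log2 scale (SE 0.247, adjusted p 0.00303), and Hilpda, an inhibitor of the lipase ATGL, at -0.89 (SE 0.223, adjusted p 0.0178; chosen after its values were seen). Cidec, which enlarges droplets, was at 0.73 (SE 0.256) and narrowly missed the threshold (adjusted p 0.107) although its 6 cold libraries all lay above the 6 warm ones, with warm m6 the lowest at 41.8 CPM against 86.7 to 121.

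In lipolysis 3 of 6 tested genes rose, against 3.76% of all tested genes. Mgll, monoglyceride lipase, rose from 302 to 351 CPM to 435 to 512 CPM (log2 difference 0.53, SE 0.0744, adjusted p 4.95e-05), Abhd5, the activator of ATGL, by 0.76 (SE 0.185, adjusted p 0.0148) and Abhd6, a monoglyceride hydrolase, by 0.44 (SE 0.121, adjusted p 0.031). The main lipases were not called, Pnpla2 (ATGL) at 0.24 (SE 0.18, adjusted p 0.551) and Lipe (hormone-sensitive lipase) at -0.20 (SE 0.193, adjusted p 0.657).

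Among 16 genes of fatty acid uptake and binding 3 rose and 1 fell, against 3.76% higher and 3.31% lower over all tested genes. Fabp3, the heart-type fatty acid binding protein, went from 7.84 CPM (2.25 to 18.3) to 46.1 CPM (19.3 to 82.3), a 5.5-fold rise (log2 difference 2.46, SE 0.379, adjusted p 1.61e-04). Lpl, lipoprotein lipase, which frees fatty acids from circulating lipoproteins, rose from 656 CPM (299 to 947) to 1324 CPM (993 to 2136), by 1.16 (SE 0.253, adjusted p 0.00583). Acsl5, an acyl-CoA synthetase, rose by 0.60 (SE 0.0994, adjusted p 3.73e-04). Angptl4, the secreted inhibitor of lipoprotein lipase, moved the other way, from 97.0 CPM (55.6 to 114) to 57.3 CPM (44.4 to 71.0), with overlapping groups and a log2 difference of -0.67 (SE 0.184, adjusted p 0.0323).

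Fatty acid oxidation had 7 of 23 genes higher, against 3.76% of all tested genes, and none lower, with a median of 0.24. Acot11, a brown fat acyl-CoA thioesterase induced by cold, rose 6.99-fold (log2 difference 2.81, SE 0.305, adjusted p 1.25e-06), from 2.54 to 8.89 CPM to 20.0 to 44.0 CPM. Slc25a20, the carnitine-acylcarnitine carrier, rose by 0.98 (SE 0.165, adjusted p 4.40e-04), Cpt2, which reforms acyl-CoA inside mitochondria, by 0.56 (SE 0.112, adjusted p 0.0026) and Decr1, needed for unsaturated fatty acids, by 0.38 (SE 0.0819, adjusted p 0.00537). None of the 4 overlapped between the temperatures.

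**Figure D3:**
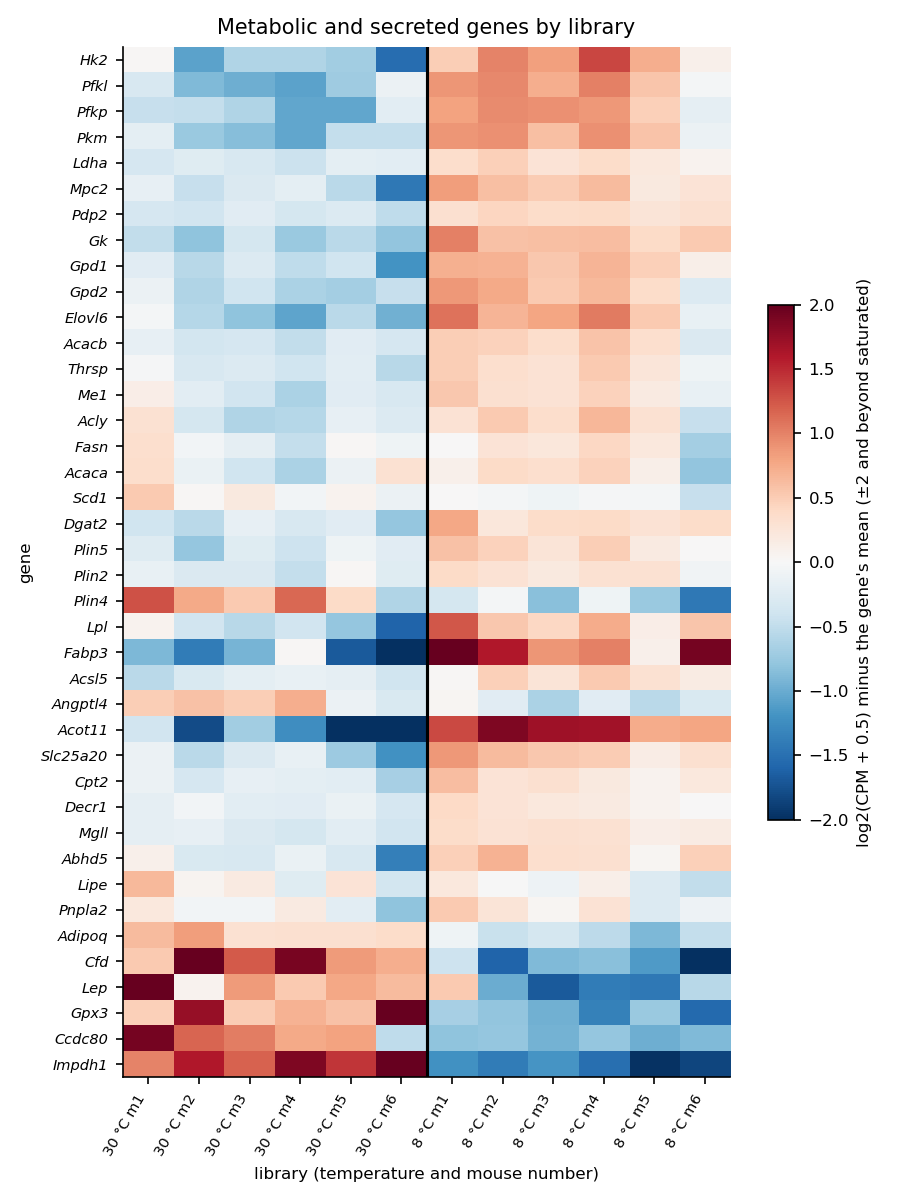
Log2 of CPM plus 0.5 for 40 metabolic and secreted genes in the 12 BATdKO libraries, each gene relative to its own mean, red higher and blue lower, with warm mice left of the line and cold mice right of it. Most metabolic genes change from blue to red across the line, Fasn, Acaca, Scd1, Lipe and Pnpla2 do not, and the bottom block of Adipoq, Cfd, Lep, Gpx3, Ccdc80 and Impdh1 runs the other way.

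Among mitochondrial genes, most of those encoded in the organelle rose. Of 13 mitochondrially encoded genes 10 rose, against 3.76% of all tested genes, and none fell. All 13 had a positive log2 difference, with a median of 0.51. Without warm m6, 8 of the 13 passed. Nd1 of complex I (mt-Nd1) rose from 8432 CPM (5903 to 10002) to 13553 CPM (11964 to 17459), by 0.78 (SE 0.129, adjusted p 3.65e-04). Subunit 6 of ATP synthase (mt-Atp6) rose by 0.58 (SE 0.124, adjusted p 0.00551) and subunit 3 of cytochrome oxidase (mt-Co3) by 0.44 (SE 0.0869, adjusted p 0.00219). Their exons overlap each other on the same strand. The mitochondrial tRNA gene mt-Tc rose by 1.90 (SE 0.227, adjusted p 5.61e-06).

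Of 39 nuclear genes of the respiratory chain 5 passed, all of them higher, against 3.76% higher over all tested genes. Their median log2 difference over the list was 0.19, with positive values in 36. Without warm m6 the count was 3. Cycs, cytochrome c, rose by 0.55 (SE 0.134, adjusted p 0.0144), Ndufa9 by 0.34 (SE 0.0893, adjusted p 0.0242) and Ndufs8 by 0.31 (SE 0.0873, adjusted p 0.0359). Ndufs1, the largest subunit of complex I, was at -0.07 (SE 0.105, adjusted p 0.793). Of 18 genes of the tricarboxylic acid cycle 3 rose, namely Sucla2 (0.69, adjusted p 0.0365) and Suclg1 (0.51, adjusted p 0.0154), subunits of succinyl-CoA ligase, and Mdh2, malate dehydrogenase (0.32, adjusted p 0.0478). Slc25a34, a mitochondrial carrier whose substrate is not settled, rose 7.30-fold (log2 difference 2.87, SE 0.282, adjusted p 2.74e-07) from 0.751 to 4.92 CPM to 14.8 to 34.0 CPM.

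Other heat-producing or fuel pathways are given beside the 3.76% of all tested genes that were called higher. Of 5 creatine cycle genes Ckb, cytosolic creatine kinase, rose by 1.17 (SE 0.179, adjusted p 1.51e-04) and Alpl, the phosphatase placed in that cycle, by 0.92 (SE 0.209, adjusted p 0.00865). In the breakdown of branched-chain amino acids 3 of 19 rose: Pcca by 0.82 (adjusted p 0.00209), Dbt by 0.33 (adjusted p 0.0246) and Mut by 0.33 (adjusted p 0.0482), which all act downstream of the transamination step. Mut was not called without warm m6 (adjusted p 0.123), leaving 2. In cholesterol synthesis 3 of 24 rose, by small amounts, such as Hmgcs1 by 0.26 (SE 0.0749, adjusted p 0.0477). Without warm m6 only 1 of the 24 passed, and Hmgcs1 did not (adjusted p 0.133).

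Signalling lists are set beside the shares over all tested genes, 3.76% higher and 3.31% lower. Of 20 genes of adrenergic receptors and cAMP signalling 4 rose and 2 fell, against 3 and 1 without warm m6. Gnas, which encodes the stimulatory G protein α subunit, rose by 1.52 (SE 0.259, adjusted p 4.77e-04) but was low and overlapping, at 2.36 to 5.26 CPM in warm and 3.91 to 17.9 CPM in cold libraries. Pde4d, a phosphodiesterase that removes cAMP, rose by 0.77 (SE 0.185, adjusted p 0.0129) and Nr4a2, an immediate cAMP target, by 0.80 (SE 0.201, adjusted p 0.0192). Adcy9, an adenylyl cyclase, fell by 0.54 on the log2 scale (SE 0.146, adjusted p 0.0298). In insulin signalling 2 of 18 passed, Socs2 at 0.59 (adjusted p 0.0653) and Irs2 at 0.39 (adjusted p 0.0799), and neither passed without warm m6 (adjusted p 0.145 and 0.183).

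Hdac3, the deacetylase of the corepressor complex, was not called, at -0.44 (SE 0.187, adjusted p 0.204). The same shares, 3.76% higher and 3.31% lower, apply to the lists that follow. Of 22 nuclear receptors none rose and 2 fell, Rarg at -0.69 (SE 0.176, adjusted p 0.0194) and Nr1d1, the clock repressor Rev-erbα, at -0.48 (SE 0.135, adjusted p 0.0401, and 0.108 without warm m6). Per3 was the only one of 14 clock genes called, at -0.49 (SE 0.139, adjusted p 0.0382). Mef2d, a target of class IIa deacetylases, was the only one of 6 genes of that list, at 0.77 (SE 0.192, adjusted p 0.018).

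Stress lists are given beside the shares over all tested genes, 3.76% higher and 3.31% lower. In the unfolded protein response 2 of 24 genes rose and 2 fell: the chaperones Hyou1 (0.33, adjusted p 0.0675) and Dnajb11 (0.31, adjusted p 0.0795) against Trib3 (-0.89, SE 0.171, adjusted p 0.00179) and Ddit3 (-0.64, SE 0.199, adjusted p 0.0661), which act late in the response. Without warm m6 none of the list was called higher (adjusted p 0.145 for Hyou1 and 0.191 for Dnajb11), and Dnajb11 was also not called by DESeq2. Of 18 cytosolic heat shock genes only Hspa4 passed, at 0.24 (adjusted p 0.0579), and none did without warm m6 (adjusted p 0.142 for Hspa4). Of 32 proteasome genes 2 rose, Psmb3 by 0.30 (adjusted p 0.0155) and Psmb5 by 0.29 (adjusted p 0.0199). None of 14 tested cell division genes was called, although 10 had a positive log2 difference and the median was 0.44, against -0.13 in Cre-. None of them was called in the interaction. The other 18 of the 32 members, Cdk1, Ccnb1 and Plk1 among them, were not among the genes with counts.

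Several secreted and stromal genes fell. Of 12 tested adipokines and batokines 4 fell, against 3.31% of all tested genes, and none rose, with a median of -0.39. Cfd, adipsin or complement factor D, which adipocytes secrete, went from 266 CPM (185 to 848) to 63.6 CPM (14.7 to 96.2), without overlap, a difference of -2.71 (SE 0.467, adjusted p 5.22e-04). Lep, leptin, fell from 1.77 to 13.4 CPM to 0.178 to 2.61 CPM (-2.75, SE 0.601, adjusted p 0.00608), with 1 cold library inside the warm range. Adipoq, adiponectin, went from 192 CPM (185 to 268) to 109 CPM (80.4 to 142), a difference of -0.93 (SE 0.184, adjusted p 0.00232). Vegfb, an endothelial growth factor, was at -0.53 (adjusted p 0.0436, and 0.122 without warm m6).

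Gpx3, a secreted glutathione peroxidase, fell from 347 CPM (309 to 938) to 121 CPM (75.1 to 140), a difference of -2.15 (SE 0.286, adjusted p 2.64e-05). Ccdc80, a matrix protein of adipose tissue, fell from between 20.4 and 112 CPM to between 14.6 and 17.0 CPM (-1.91, SE 0.277, adjusted p 7.23e-05). Of 29 collagen and matrix genes 6 fell and 2 rose, with a median of -0.48. Over all tested genes the shares were 3.31% lower and 3.76% higher. Among those that fell were Col5a3 (-0.54, SE 0.141, adjusted p 0.0243) and Col6a2 (-0.69, SE 0.206, adjusted p 0.0539, and 0.12 without warm m6), and only 2 of the 6 passed without warm m6. The 2 that rose both encode enzymes that cross-link collagen and elastin, Loxl1 by 1.78 (SE 0.272, adjusted p 1.44e-04) and Lox by 1.20 (SE 0.282, adjusted p 0.0114).

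Calls among markers of other cells are set beside the 3.76% higher and 3.31% lower of all tested genes. Of 9 tested markers of adipocyte progenitors and stroma 2 fell, Dpt (-1.04, adjusted p 0.0361) and Pdgfra (-0.84, adjusted p 0.084), and the summed share of the list was 0.00592% to 0.00783% in warm and 0.00391% to 0.00496% in cold libraries, without overlap. Pdgfra was not called without warm m6 (adjusted p 0.15), leaving 1, and lost its call on removal of any of 9 BATdKO libraries. The summed macrophage share given above was mostly lower in the cold too, but its ranges overlapped. These shares are of raw counts, and normalization factors were lower in every cold than in every warm BATdKO library. A lower share can thus arise without lower normalized levels. The hepatocyte share had medians of 5.05% in warm and 4.77% in cold, with 13 of 15 log2 differences positive. The median log2 difference was -0.37 for progenitor and stroma markers and -0.21 for macrophage markers. Of 12 endothelial markers 2 rose, Emcn by 1.15 (SE 0.162, adjusted p 4.62e-05) and Kdr by 0.30 (SE 0.0779, adjusted p 0.0214), while the summed share stayed at 0.0301% to 0.0394% and 0.03% to 0.0339%. All 4 tested haemoglobin genes rose, Hbb-bs by 0.93, Hbb-bt by 0.76, Hba-a1 by 0.45 and Hba-a2 by 0.42, and their near-identical copies share reads. Of 6 white adipocyte markers only Lep was called (2 were without warm m6), and none of 4 smooth muscle and 2 Schwann cell markers. In tissue RNA, fewer cells of a type and less RNA per cell cannot be told apart, and the part of these markers in the results was not tested.

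Genes outside the lists included several of those with the smallest p. Bsg, basigin, the chaperone of lactate carriers, rose from 72.1 to 91.3 CPM to 150 to 212 CPM, by 1.13 (SE 0.102, adjusted p 7.56e-08). Cdkn1a, the cell cycle inhibitor p21, rose by 1.31 (SE 0.156, adjusted p 5.61e-06), Ackr3, an atypical chemokine receptor, by 2.55 (SE 0.277, adjusted p 1.25e-06) and Ankrd9, known to promote the breakdown of IMP dehydrogenase, by 2.05 (SE 0.22, adjusted p 1.20e-06). Ffar4 (GPR120), a receptor of long-chain fatty acids induced in brown fat by cold, was at 0 to 5 counts in the warm and 6 to 57 counts in the cold libraries, and 2310069B03Rik, of no named function, at 1 to 5 against 4 to 39 counts.

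On the downward side, Mmd2 fell from 23.9 CPM (21.7 to 31.6) to 6.62 CPM (3.92 to 7.08), a difference of -2.03 (SE 0.221, adjusted p 1.25e-06). Hcar1, the lactate receptor that restrains lipolysis, fell from 4.16 CPM (1.5 to 8.26) to 0.485 CPM (0.162 to 0.688), a difference of -3.09 (SE 0.498, adjusted p 2.50e-04). Ntrk3, a neurotrophin receptor, was at -2.24 (SE 0.452, adjusted p 0.00285). Lrch3 (-0.98), Blcap (-0.71), Mfsd12 (-1.15), Soga1 (-1.40), Sspn (-1.13) and Ssh2 (-0.53) completed the 12 non-overlapping genes of smallest p, together with Impdh1, Gpx3, Ccdc80, Pygb, Hcar1 and Mmd2.

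The Cre- libraries gave the same comparison in other mice. Their total counts were 5449299 to 11126592, except for the warm mouse m4, which had 699703 counts and 11824 genes detected and entered the Cre- comparison and every interaction. In Cre- 1144 genes were called, 696 higher and 448 lower (9.16%, 5.57% and 3.59% of those tested). The contrasts share no library, but both set the same blocks of library numbers against each other. Genes called in both in the same direction numbered 398, 274 higher and 124 lower, which is 45.1% of the BATdKO list and 34.8% of the Cre- list, and 4 genes were called in opposite directions. Of the 883 genes called in BATdKO, 89.6% had the same sign in Cre-, against 61.4% of all tested genes. Across the 12485 genes, which are not independent, Pearson's r of the log2 differences was 0.585.

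**Figure D4:**
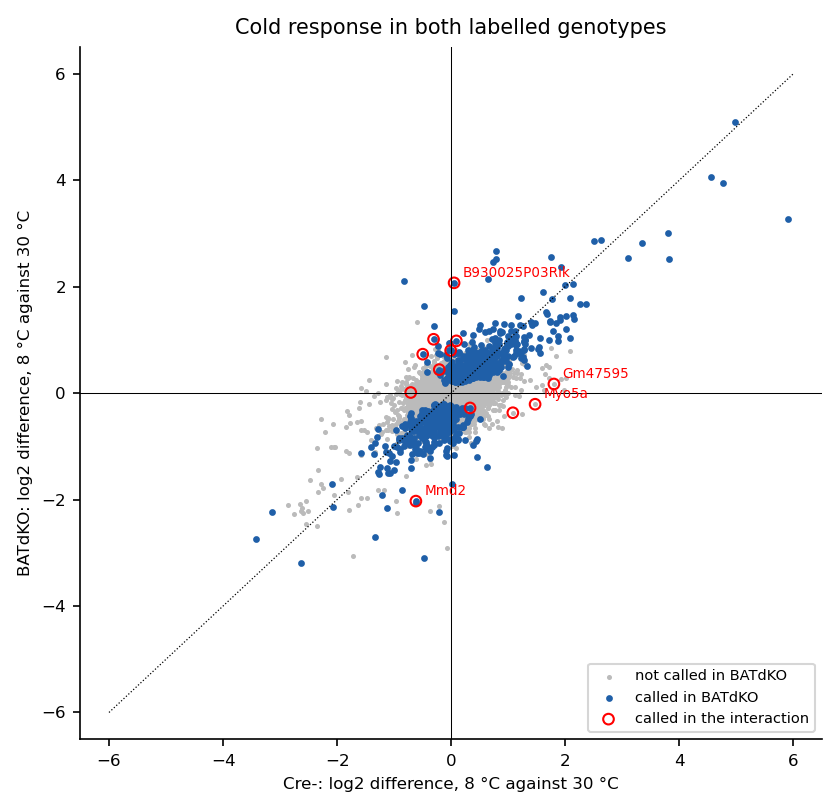
Log2 difference of 8°C against 30°C in Cre- (horizontal) and in BATdKO (vertical) for all 12485 tested genes, with genes called in BATdKO in blue and the 12 genes called in the interaction ringed in red, 4 of them named. Most blue points lie in the upper right and lower left, near the dotted line of equal change.

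Side by side, Ucp1 rose by 2.54 in BATdKO and 3.10 in Cre-, Dio2 by 4.05 and 4.56, Gk by 1.26 and 1.25, Hk2 by 1.49 and 1.68, and Impdh1 was at -3.20 and -2.63. None of these differences between labelled genotypes passed in the interaction (adjusted p 0.853 for Ucp1, 0.864 for Dio2, 1 for Gk, 0.92 for Hk2 and 0.685 for Impdh1). The difference for Ucp1, -0.56, had an SE of 0.571, and a difference of that size was not detectable with this error. Pdk4 was at 0.06 in BATdKO and 1.62 in Cre- (adjusted p of the difference 0.391).

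The cold response differed between the labelled genotypes for 12 genes (0.0961% of those tested), 7 more positive and 5 more negative in BATdKO, and 1005 had an unadjusted p under 0.05. The number depended on the processing, with 51 by DESeq2, 18 without the shallow Cre- warm m4, and 7 to 37 over the removal of single libraries (37 without Cre- cold m2). Dgat2, Mmd2, Myo5a, Gm47595 and Gm5898 lost their call in some setting. Cbr1, carbonyl reductase, rose in BATdKO from 50.9 to 74.3 CPM to 94.3 to 139 CPM but was at 56.9 to 69.7 and 63.5 to 71.7 CPM in Cre-, and the difference of the responses was 0.89 (SE 0.138, adjusted p 0.0086). Dgat2 was at 228 to 399 CPM in warm and 256 to 304 CPM in cold Cre- mice, and the difference was 0.81 (SE 0.17, adjusted p 0.0716). Ighm, the heavy chain of immunoglobulin M, rose from 9.54 CPM (7.66 to 13.9) to 20.0 CPM (13.1 to 27.4) in BATdKO and went from 8.63 to 6.90 CPM in Cre- (difference 1.32, SE 0.224, adjusted p 0.0185). The antibody light chain Igkc did not change with it in BATdKO (0.12, adjusted p 0.774), and 9 of the 11 lymphocyte markers were not analysed here.

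Gngt2 (1.23), a G protein γ subunit, Dcaf12 (0.66), a ubiquitin ligase receptor, and the uncharacterised B930025P03Rik (2.02) also rose more in BATdKO. Ivns1abp, an actin-binding protein, was at 0.01 in BATdKO and fell in Cre- (-0.71), a difference of 0.72 (SE 0.132, adjusted p 0.0303). Myo5a, a myosin motor, went from 15.8 CPM (7.16 to 22.5) to 47.2 CPM (30.7 to 60.9) in Cre- and from 24.6 CPM (19.0 to 35.2) to 25.3 CPM (8.41 to 29.6) in BATdKO (difference -1.68, SE 0.344, adjusted p 0.0619). Irak3 (-1.45), a brake on interleukin-1 receptor signalling, and the unnamed transcripts Gm47595 (-1.63) and Gm5898 (-0.60) followed the same order, as did Mmd2 (-1.41, adjusted p 0.0884), which fell more in BATdKO.

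**Figure D5:**
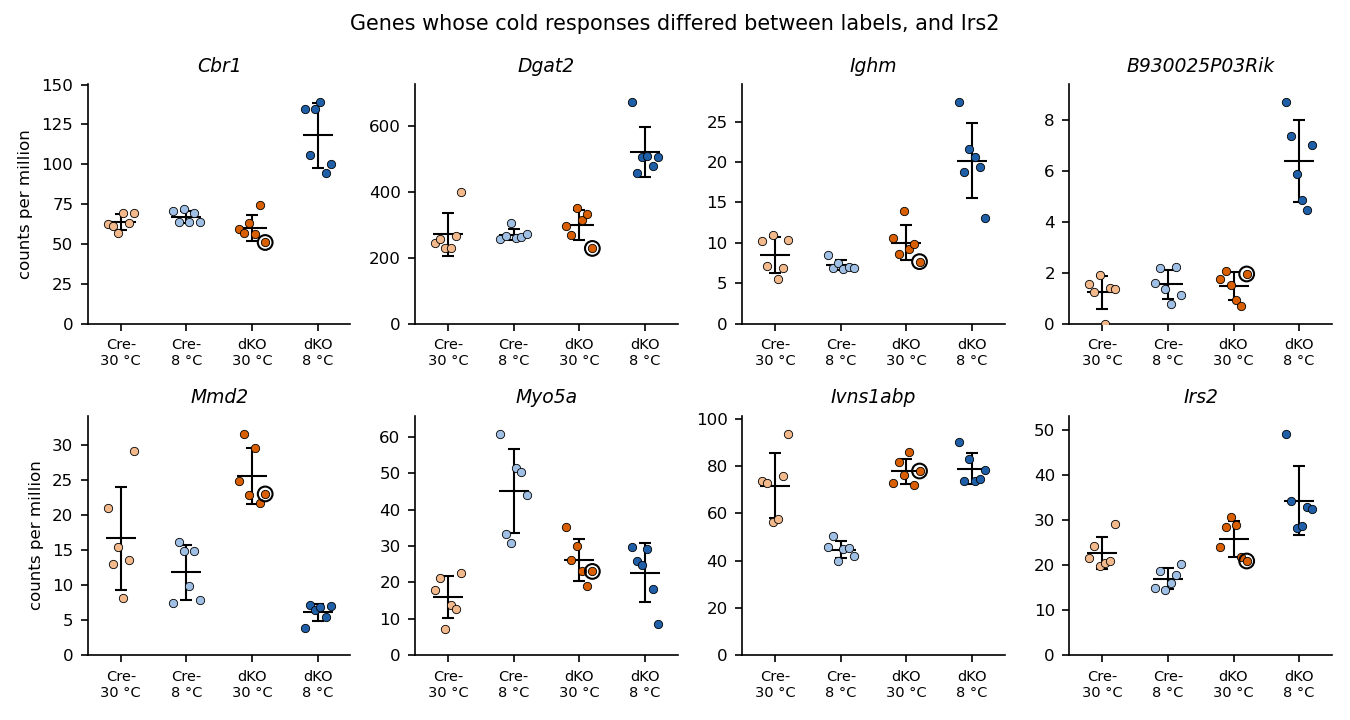
CPM of 7 of the 12 genes called in the interaction, and of Irs2, in the 4 groups of 6 libraries (pale, Cre-; dark, BATdKO; orange, 30°C; blue, 8°C) with mean and SD; the ring marks warm BATdKO mouse m6. Cbr1, Dgat2, Ighm and B930025P03Rik are raised only in the cold BATdKO group, and Myo5a only in the cold Cre- group.

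Called in both comparisons but in opposite directions were Irs2, Gngt2, Mios and Gm5898. In BATdKO the calls of Irs2, Mios and Gm5898 were lost in 9, 10 and 12 of the 18 other settings, those of Mios and Gm5898 also with DESeq2. Irs2, an adaptor of the insulin receptor, was at 0.39 in BATdKO (adjusted p 0.0799) and -0.43 in Cre- (adjusted p 0.0465), and the difference of 0.82 just missed the threshold (adjusted p 0.105). Mios, a regulator of amino acid sensing, was at -0.49 and 0.51 (adjusted p of the difference 0.105). Genes called in BATdKO with an unadjusted p of at least 0.05 in Cre- numbered 361, of which 4 of the strongest that fell were Rcor3, a corepressor subunit (-0.68), Ahnak, a large scaffold protein (-1.02), Slc4a7, a bicarbonate carrier (-0.58) and Adig, adipogenin (-0.82), and among those that rose was B430219N15Rik (2.67). The interaction was not called for any of these 5 (adjusted p 0.105 to 0.472), so a difference from Cre- was not shown.

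The study names 15 genes as derepressed or increased when the complex is lost in the cold. Its classes used another p cut-off than the calls here, and its figure gives fewer mice per group. The list of 15 was drawn from these samples and is not independent of them. Derepressed genes were defined as higher in BATdKO than in Cre- at 8°C and lowered by cold in Cre-. For genes chosen that way, falls in Cre- and smaller falls in BATdKO were favoured by the selection. In BATdKO 4 of the 15 rose with cold, namely Dgat2, Fabp3, Socs2 and Irs2, and Angptl4 fell. Over all tested genes 3.76% rose and 3.31% fell in BATdKO. Without warm m6, Socs2 and Irs2 were not called and Apol6 was called lower (-0.89, adjusted p 0.0507), so that 2 rose and 2 fell. In Cre-, 7 of the 15 fell and none rose, against 3.59% lower and 5.57% higher over all tested genes. Svep1, a matrix protein, was at -0.48 in BATdKO and -2.29 in Cre- (adjusted p of the difference 0.166), Hspa12a, a heat shock protein relative, at -0.16 and -1.60 (0.162), and Apol6, an apolipoprotein, at -0.73 and -1.47 (0.664), so the responses in BATdKO were smaller without the difference passing. Of the 8 metabolic genes that the study names as repressed, 5 rose in BATdKO (Hk1, Hk2, Pfkp, Me1 and Acot11) and 7 rose in Cre-, and the medians were 0.58 and 1.15. The study defined repressed genes as induced by cold in Cre- and lower in BATdKO than in Cre- at 8°C. More rises and a larger median in Cre- were thus favoured by the selection, and no conclusion is drawn from them.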

How the data were processed

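Brown fat RNA from 24 mice, 6 in each of 4 groups of labelled genotype and temperature, was sequenced as QuantSeq 3′ tags. The authors trimmed reads with BBDuk, aligned them with STAR to GRCm38 and counted them per gene with Rsubread, and the deposited values were raw counts. The annotation release, the strand setting of counting and any filter before deposit were not given in the sources used here. The table held 12615 genes, of which 12608 were matched to a symbol, and positions were taken from GENCODE vM21 on the same build. The authors reported removing outliers without naming them, and all 24 libraries were used here.

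Counts were fitted in R 4.3.3 with edgeR 4.0.16 (limma 3.58.1), using TMM normalization, edgeR's filter on low counts (12485 genes kept, 130 removed), 1 mean per group and the quasi-likelihood test, with calls at a Benjamini-Hochberg adjusted p under 0.1, the study's threshold. The SE was the log2 difference divided by the root of the F statistic. The interaction was the BATdKO cold difference minus the Cre- cold difference. Counts were simulated with the same mean of a gene in all groups and no library set apart. In the BATdKO cold contrast 200 genes with a mean count of at least 10 were changed by 1 on the log2 scale. Run on 12438 genes, edgeR recovered 181 (90.5%), none with the wrong sign, and called 18 unchanged genes, while DESeq2 1.42.0 recovered 179. Called genes in the data had median log2 differences of 0.54 upward and -0.54 downward, and recovery at that size was not measured. Promoters came from RefSeq (GRCm38.p6), where 135 of the 174 named genes had an entry.

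The members and gene lists were chosen with earlier results of these data known. Named genes were both targeted genes, the 12 genes of smallest p per direction among called genes whose groups did not overlap, the 5 largest changes per direction with a mean of at least 1 CPM, up to 4 called members per list (or the 2 of smallest p), a set of thermogenic and fuel genes, up to 5 interaction genes per direction, up to 4 genes called with opposite signs and up to 5 per direction called in BATdKO alone, and the genes the study names. Of the 174 named genes, 10 share exon sequence with another gene on the same strand and 54 on the other strand, and their reads may be mixed. Alternatives were DESeq2, its size factors, no filter, a mean count of at least 10, robust dispersion, only the BATdKO libraries, and leaving out each library.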

Additional observations from a re-analysis of the deposited data

Results flagged for a closer look

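In 31 of 306 gene and library-statistic groups (10.1%), 1 library lay apart from the other 5 by Dixon's criterion, where chance gives about 1 in 20. Of these, 13 concerned the warm BATdKO mouse m6. It held 39.6 CPM of Tbl1x, 61.1 of Mpc2, 386 of Gpd1, 41.8 of Cidec, 4.81 of Abhd5, 63.5 of Ndufs8, 39.2 of Dbt, 10.7 of Socs2, 46.9 of Psmb3 and 5.56 of St3gal6, each below the other 5 warm mice. It held 84 CPM of Vegfb, 2226 of Hba-a1 and 2095 of Hba-a2, each above them.

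The cold mouse m6 accounted for 8, and most were genes of fatty acid synthesis. It was lowest for Acacb at 102 CPM, Acly at 214, Fasn at 1507, Acaca at 148, Scd1 at 7174, Pkm at 201 and Dpt at 4.11, and highest for Mfsd12 at 6.06. The cold mouse m1 was highest for Dgat2 at 672 CPM, Cidec at 215 and Irs2 at 49.2, and had the fewest genes detected, 12521. The cold mouse m5 was lowest for Pcca at 20.5 CPM, Dbt at 44.7 and Mut at 61.5. Among warm mice, m4 was lowest for mt-Tc at 7.64 CPM, m1 highest for Lep at 13.4 and m5 lowest for Kdr at 66.7.

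The cold difference in BATdKO minus that in Cre-, tested as an interaction by edgeR, was positive for B930025P03Rik (2.02), Ighm (1.32), Gngt2 (1.23), Cbr1 (0.89), Dgat2 (0.81), Ivns1abp (0.72) and Dcaf12 (0.66). It was negative for Myo5a (-1.68), Gm47595 (-1.63), Irak3 (-1.45), Mmd2 (-1.41) and Gm5898 (-0.60).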

How the results depend on the processing

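The number of genes called in BATdKO was 866 to 904 under the 6 settings that kept all BATdKO libraries. Leaving out 1 library gave 574 to 1070 called genes and 238 to 522 called lower, and both lowest values came without cold mouse m4. The interaction count of 12 was 51 with DESeq2 and 21 with robust dispersion, and 7 to 37 with 1 library left out (37 without Cre- cold m2, 35 without Cre- warm m1, 32 without Cre- warm m6, 21 without BATdKO warm m4, 7 without BATdKO warm m2, BATdKO cold m5 or Cre- cold m5). Of 150 genes followed, 123 were called, 105 of these in every setting, and none changed sign. Without warm m6, 14 lost their call. Among interaction genes Dgat2, Gm47595, Gm5898, Mmd2 and Myo5a lost theirs in some setting. Uncalled genes near 0 changed sign: Tbl1x was -0.00 with DESeq2 and with only the BATdKO libraries, -0.01 without a filter and -0.08 to 0.06 with 1 library left out. On leaving out 1 library, Slc2a1 ran from -0.18 to 0.13, Slc2a4 from -0.13 to 0.22, Pdk4 from -0.09 to 0.17 and Ivns1abp from -0.02 to 0.04. The cause was not tested. No paired analysis was possible because mouse numbers pair no mice between groups. Genes of a few counts per library are the least certain.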
